A study of Mus musculus with 36 samples.

Results

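Podocyte genes were examined in mouse kidneys and tumors carrying the ASPSCR1-TFE3 fusion. The 8 genes are Nphs1, Podxl, Wt1, Synpo, Ptpro, Plce1, Clic5 and Mme, chosen by symbol from the 53379 genes of the count tables. Each symbol matched 1 Ensembl gene, each had counts in 28 of 28 samples, and all 8 passed the filter on low counts in every comparison.

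Podocytes are epithelial cells that wrap the capillaries of the glomerulus with interlocking foot processes. Neighbouring foot processes are bridged by the slit diaphragm, which together with the glomerular basement membrane forms the filter through which primary urine passes. Podocytes arise from nephron progenitors that turn epithelial, and WT1 stays on in them after the tubule has switched it off. Most of the 8 genes are also transcribed outside the podocyte. Podxl and Clic5 are known from endothelium, Wt1 from progenitors, mesothelium and gonad, Synpo and Ptpro from neurons, Plce1 from many tissues and Mme from the proximal tubule brush border. Nphs1 is the most restricted of them within the kidney.

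The fusion was switched on by Cre recombinase in tissues that use the Pax8 or the Sglt2 promoter. Pax8 is active in the developing nephron, whereas Sglt2 is a gene of the proximal tubule, and neither is a gene of the mature podocyte. The fetal groups were dysmorphic kidneys of 5 Pax8-Cre; ASPSCR1-TFE3 LSL/+ fetuses and kidneys of 3 control fetuses of matched age. The sample labels give the controls as Pax8-Cre, while the series design allows Pax8-Cre or ASPSCR1-TFE3 LSL/+, and the gestational ages were not stated. The adult groups came from 6 Sglt2-Cre; ASPSCR1-TFE3 LSL/+ mice, called fusion mice here, and from 3 Sglt2-Cre control mice. Kidney tumors were taken from 6 of the fusion mice (11 libraries), non-transformed kidney from 4, retro-orbital tumors from 4 and brain tumors from 3, and the controls gave 6 libraries of normal kidney. Adult ages were not stated. As labelled, the controls of each model carry its Cre without the fusion. All tissue was formalin-fixed and paraffin-embedded bulk tissue, in which fewer podocytes and less RNA per podocyte cannot be told apart.

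RefSeq promoter windows on GRCm38.p6, taken as the 250 bases before the annotated start, were at hand for 5 of the 8 genes (Nphs1, Ptpro, Plce1, Clic5 and Mme). Each window was searched on both strands for CACGTG, the palindromic E-box letters that TFE3 and its relatives bind, and for GTGGGNG, a core of motifs bound by WT1 and other zinc-finger proteins. CACGTG was in 0 of the windows of these genes and in 6.02% of 32851 promoter windows of the same length. GTGGGNG was in the windows of Nphs1 and Ptpro and in windows 1 and 2 of Mme, but not in its window 3. It was in none of Plce1 or Clic5, and in 28.1% of all windows. That share is per window, and Mme had several windows. A window with the letters and a window without them follow for a pair of foot process genes whose starts lie downstream of the window, with GTGGGNG in capitals.
Ptpro (chr6:137252049-137252298, + strand): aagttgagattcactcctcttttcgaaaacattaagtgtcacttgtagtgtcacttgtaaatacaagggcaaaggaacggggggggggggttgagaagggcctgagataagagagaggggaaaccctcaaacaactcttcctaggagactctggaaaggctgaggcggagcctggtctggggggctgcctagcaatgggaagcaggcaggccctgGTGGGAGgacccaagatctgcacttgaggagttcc
Clic5 (chr17:44188322-44188571, + strand): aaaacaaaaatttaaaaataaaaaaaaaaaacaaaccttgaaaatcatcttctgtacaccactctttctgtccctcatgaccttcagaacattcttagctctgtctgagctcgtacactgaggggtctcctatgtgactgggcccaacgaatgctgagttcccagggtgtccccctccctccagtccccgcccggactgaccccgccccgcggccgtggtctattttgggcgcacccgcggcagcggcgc
The match in Ptpro (GTGGGAG) covers bases 35 to 29 before the start. A match is only a description of the letters, and their absence says nothing about binding.

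The genes lie at chr7:30458315-30487223 (Nphs1, + strand), chr6:31519488-31563981 (Podxl, - strand), chr2:105126529-105173616 (Wt1, + strand) and chr18:60593973-60660142 (Synpo, - strand). Ptpro lies at chr6:137252319-137463233 (+ strand), Plce1 at chr19:38481109-38785030 (+ strand), Clic5 at chr17:44188584-44280172 (+ strand) and Mme at chr3:63241537-63386030 (+ strand), all on GRCm38 by the GENCODE M21 annotation. All 8 are protein-coding.

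Levels are given as CPM, a gene's counts relative to the TMM-scaled library size, after counts from the same animal and group were summed, and a gene is called where the edgeR quasi-likelihood test gave a Benjamini-Hochberg adjusted p under 0.05 over all genes tested. Libraries held 80205573 to 121415057 counts. The fetal libraries were not alike in the tissue they held, and the podocyte genes are read against that. Control fetus 3 had few nephron transcripts: the sum of 10 distal nephron and collecting duct markers was 15.7 CPM there, against 1142 and 408 CPM in control fetuses 1 and 2. Its level of Pax8, a nephron transcription factor, was 2.23 CPM against 39.1 and 27.2 CPM. Markers of intestinal epithelium, a list added after the data were seen, summed to 2267 CPM in control fetus 2, 3182 CPM in control fetus 3 and 2150 CPM in dysmorphic fetus 5, and to 4.87 to 66.6 CPM in the other 5 libraries. Adult control kidney also expresses genes of that list, with sums of 172 to 205 CPM. The proximal tubule list shares genes with intestine, and its sum was 916 CPM in dysmorphic fetus 5 and 1521 CPM in control fetus 3. Skeletal muscle markers summed to 44084 to 110900 CPM in dysmorphic and 17509 to 20441 CPM in control libraries, and all 8 of them were called higher. Stromal markers summed to 9391 to 20944 CPM against 4975 to 6548 CPM, with Col1a1, Col1a2 and Postn called higher.

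In dysmorphic fetal kidneys 7 of the 8 podocyte genes had lower estimates than in control fetal kidneys, and 2 of them fell: Podxl, which codes for the foot process sialoglycoprotein podocalyxin, and Mme, which codes for the membrane peptidase neprilysin. The background in this comparison was 2.67% of 22690 genes called (605 genes), and 2 of 8 podocyte genes were called. The median log2 fold change was -1.66 over the 8 genes and -0.04 over all genes tested. Low estimates were not particular to podocyte genes. The median was -2.43 over proximal tubule markers and -2.56 over distal nephron and collecting duct markers. It was -2.04 over parietal epithelium, -1.58 over early nephron and -0.27 over nephron progenitor markers. edgeR called 0 genes of these 5 marker lists. The levels of Podxl, Wt1 and Mme did not overlap between the groups, which makes 3 of 8 genes against 14.7% of all genes. At an unadjusted p under 0.05, edgeR counted 6 of the 8 genes, against 20.3% of all genes. DESeq2 called 4 of the 8 after adjustment (Nphs1, Podxl, Wt1 and Mme), against 10.9% of the 23865 genes to which it gave an adjusted p.

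**Figure D1:**
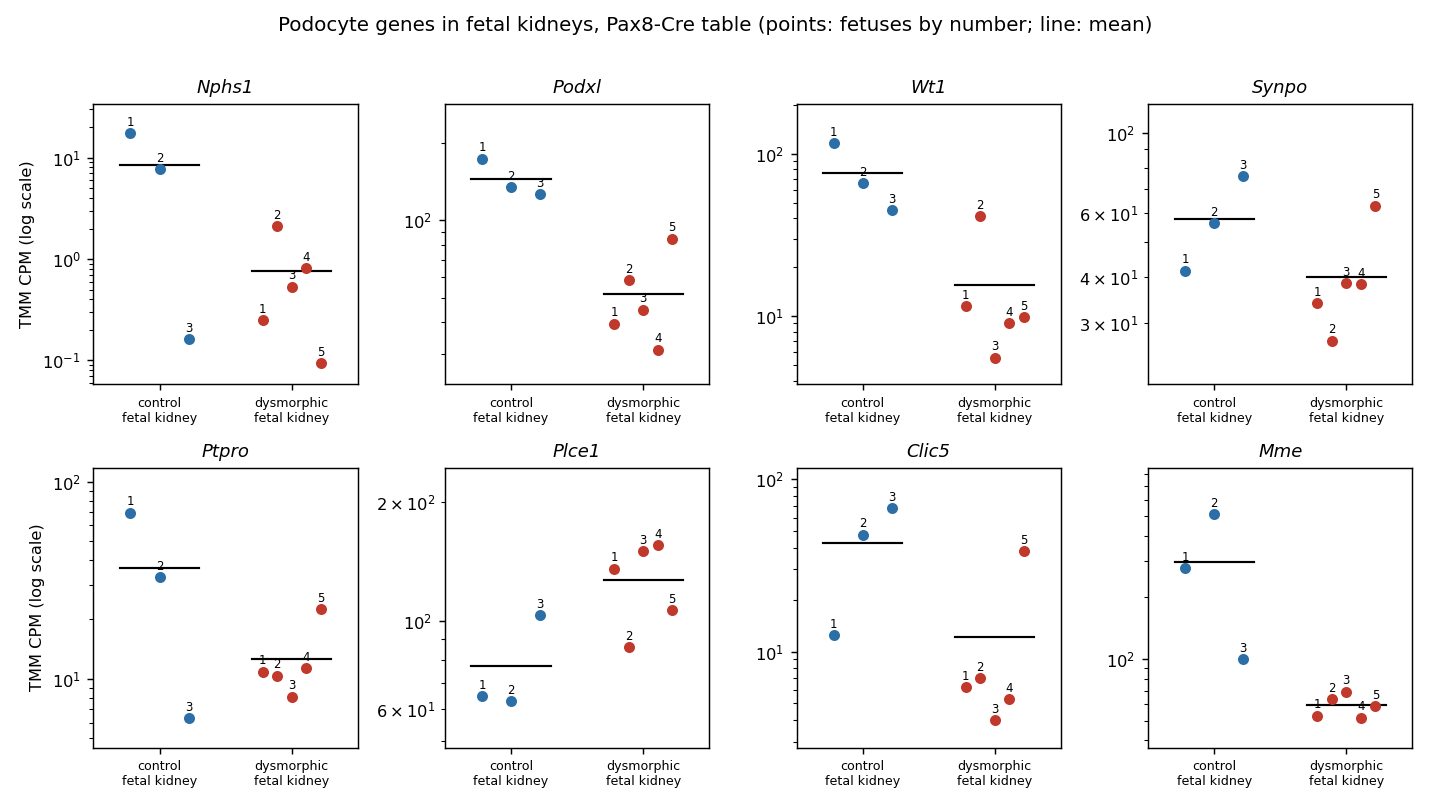
Level of each podocyte gene in CPM (log scale, vertical) in 3 control and 5 dysmorphic fetal kidneys, with fetuses numbered and the group mean as a line. Podxl, Wt1 and Mme separate the groups, whereas control fetus 3 sits among or below the dysmorphic libraries for Nphs1 and Ptpro.

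Among the slit diaphragm genes, Nphs1 codes for nephrin, the structural protein of the diaphragm itself. Its level was 17.4, 7.68 and 0.162 CPM in control fetuses 1, 2 and 3, and 0.251, 2.11, 0.534, 0.816 and 0.0947 CPM in dysmorphic fetuses 1 to 5. Control fetuses 1 and 2 were above all dysmorphic libraries, while control fetus 3 lay below 4 of the 5. The log2 fold change was -3.46 (SE 1.26) with an edgeR adjusted p of 0.177. The span of the Nphs1 gene overlaps the processed pseudogene Rps12-ps4 on the opposite strand, which was counted at 1.28 to 6.11 CPM in every sample. Whether the pseudogene overlaps an exon was not examined. Nphs1 itself was as low as 0.0945 CPM, below the pseudogene in the same group, and the strand setting of the counting was not stated. Plce1 codes for phospholipase C epsilon, a signalling enzyme of the foot process, and its estimate had the other sign. Plce1 was at 64.7, 62.7 and 104 CPM in the controls and 136, 85.8, 150, 155 and 106 CPM in the dysmorphic kidneys, where 4 of 5 values were above every control. Its log2 fold change was 0.72 (SE 0.254, edgeR adjusted p = 0.167).

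Wt1, the zinc-finger transcription factor of the podocyte lineage, was at 116, 66.2 and 45.0 CPM in the controls and 11.6, 41.0, 5.53, 9.06 and 9.85 CPM in the dysmorphic kidneys. No dysmorphic value reached the lowest control value, although fetus 2 came close to it. The log2 fold change was -2.29 (SE 0.640, edgeR adjusted p = 0.0987). Without dysmorphic fetus 2 it was -3.07 (adjusted p = 0.00639), and Wt1 was then called. Control fetus 3 kept 45.0 CPM of Wt1 with Nphs1 at 0.162 CPM, and its sum of 7 mesothelium markers was 265 CPM, the highest of the 8 libraries. Control fetus 1, with the most Wt1, had a mesothelium sum of only 43.9 CPM. Dysmorphic fetuses 4 and 5 were above that, at 51.4 and 68.6 CPM, with far less Wt1. Dysmorphic fetus 2 had the highest mesothelium sum among the dysmorphic libraries, 160 CPM, and the highest Tcf21 (15.7 CPM), a transcription factor of podocyte and stromal precursors. That library also had the highest dysmorphic sums of nephron progenitor (209 CPM), distal nephron (163 CPM) and parietal epithelium markers (58.1 CPM). Its muscle and stroma sums (44084 and 9391 CPM) were the lowest of the dysmorphic libraries. The parts of mesothelium and of nephron progenitors in the Wt1 level were not tested.

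Podxl was at 174, 135 and 127 CPM in the controls and 39.6, 58.4, 44.9, 31.3 and 84.9 CPM in the dysmorphic kidneys. The highest dysmorphic value belonged to fetus 5, the library with intestinal transcripts. The log2 fold change was -1.48 (SE 0.304, edgeR adjusted p = 0.0469). Ptpro, a receptor tyrosine phosphatase of the foot process membrane, was at 69.7, 32.8 and 6.31 CPM against 10.9, 10.4, 8.13, 11.3 and 22.7 CPM. Here control fetus 3 was lowest of all 8 libraries, and the log2 fold change of -1.51 (SE 0.636) had an edgeR adjusted p of 0.233. Synpo, the actin-associated protein synaptopodin, was at 41.7, 56.3 and 75.9 CPM in the controls and 33.9, 26.7, 38.5, 38.2 and 62.9 CPM in the dysmorphic kidneys. Synpo was highest in control fetus 3, the control with the least Nphs1, and its log2 fold change was -0.53 (SE 0.292, edgeR adjusted p = 0.357). Clic5, a protein that ties the foot process membrane to ezrin and actin, was at 12.5, 47.9 and 67.8 CPM against 6.24, 7.05, 3.98, 5.31 and 38.2 CPM. The 3 libraries above 30 CPM were those with intestinal transcripts. The log2 fold change of Clic5 was -1.81 (SE 0.838, edgeR adjusted p = 0.274) and became -2.92 without dysmorphic fetus 5 (adjusted p = 0.0337).

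Mme was at 278, 513 and 99.6 CPM in the controls and 52.8, 63.5, 69.3, 51.6 and 59.0 CPM in the dysmorphic kidneys. The dysmorphic values were close together, while the controls ranged over 5-fold. The log2 fold change was -2.32 (SE 0.417, edgeR adjusted p = 0.0382). Proximal tubule markers summed to 65.3, 160, 87.8, 46.2 and 916 CPM in dysmorphic fetuses 1 to 5. The control sums were 1503, 1277 and 1521 CPM. Control fetuses 2 and 3, the highest and the lowest control for Mme, both held intestinal transcripts. The parts of proximal tubule and intestine in the Mme level were not tested.

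The calls of Podxl and Mme were lost when most single fetuses were left out. Podxl was no longer called without control fetus 1 (edgeR adjusted p = 0.117), control fetus 2 (0.176), control fetus 3 (0.108), or dysmorphic fetus 1 (0.117), 3 (0.114) or 4 (0.0866). Mme was no longer called without the same fetuses (edgeR adjusted p = 0.0991, 0.172, 0.0927, 0.0996, 0.0879 and 0.0893 in that order). In each of these 6 fits edgeR called 0 of all genes, with 3209 to 4615 at an unadjusted p under 0.05, so the loss was not particular to Podxl and Mme. Both kept their direction, with log2 fold changes of -1.57 to -1.33 for Podxl and -2.73 to -1.67 for Mme in those fits. Both calls were also lost with the title prefix, which dysmorphic and control fetuses share, as a covariate (edgeR adjusted p = 0.0607 for Podxl and 0.0513 for Mme), a fit in which 409 of all genes were called. With sex as a covariate they were lost too (0.0702 and 0.0613), and 5 of all genes were called. Without the 3 fetuses with intestinal transcripts, a choice made after seeing the data, the log2 fold changes were -1.98 for Podxl and -2.21 for Mme (edgeR adjusted p = 0.222 and 0.143). That fit set 4 dysmorphic fetuses against control fetus 1 alone, which is assumed to vary like the others. With the muscle marker sum as a covariate, also added after seeing the data, Podxl was at -0.10 and Mme at -2.52 (both adjusted p = 0.9998), while Wt1, Plce1 and Clic5 changed sign (0.77, -0.48 and 1.9985). The muscle sums do not overlap between the groups, so the groups and the muscle content cannot be told apart in that fit.

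**Figure D2:**
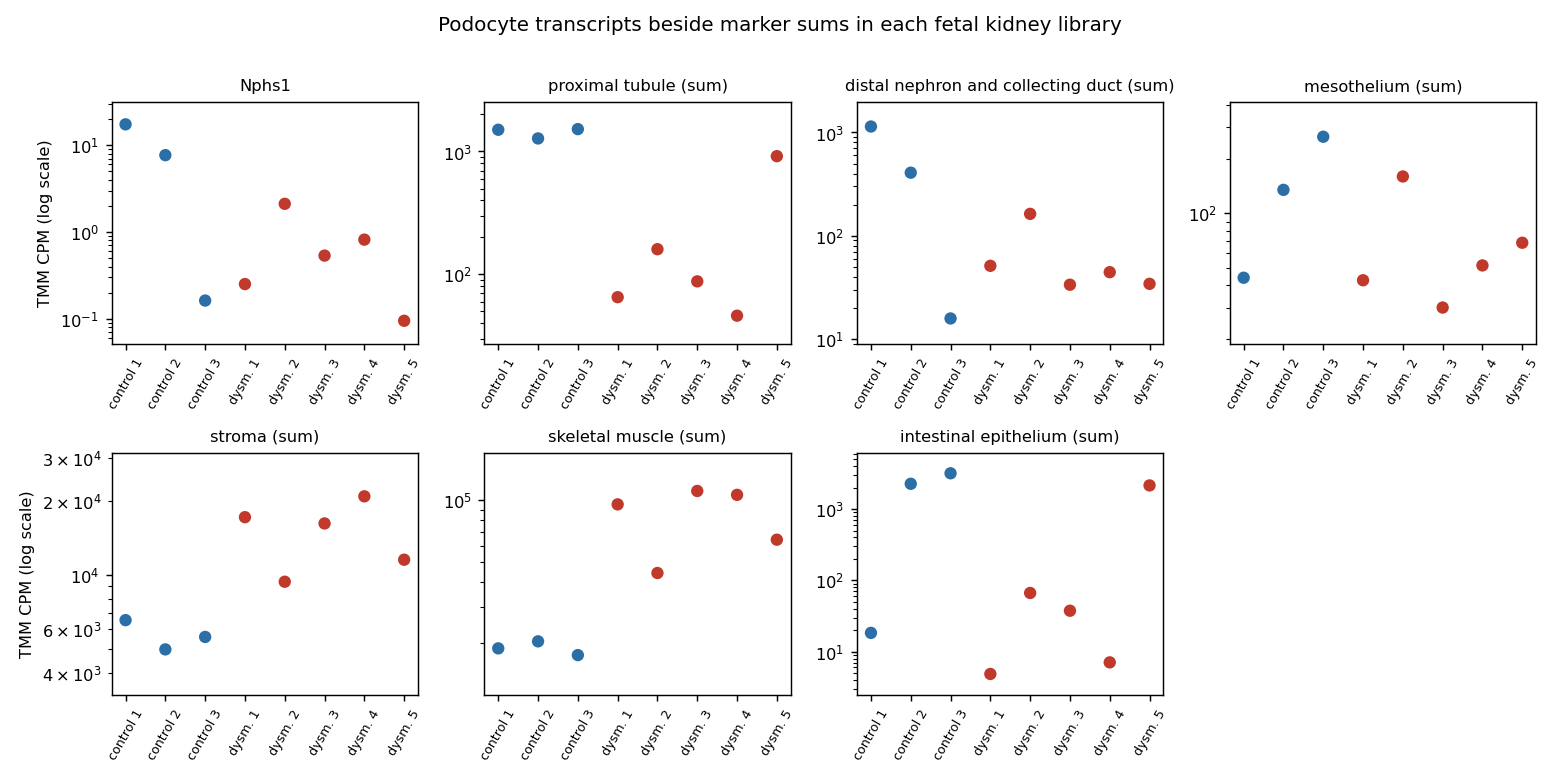
Nphs1 and the summed marker levels of 6 other tissues (CPM, log scale, vertical) in each of the 3 control and 5 dysmorphic fetal libraries. Control fetus 3 had Nphs1 at 0.162 and a distal nephron sum of 15.7, and the intestinal sums of control fetuses 2 and 3 and dysmorphic fetus 5 were 2267, 3182 and 2150.

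Of a wider list of 58 podocyte genes, 0 were called higher and 2 lower (Podxl and Mme) in dysmorphic kidneys, close to the 2.67% of all genes called by edgeR. DESeq2 called 13 of the 58, against 10.9% of all genes. edgeR called 9 without dysmorphic fetus 2, when 1247 of all genes were called, 5 without dysmorphic fetus 5, when 1141 were, and 0 of the list and of all genes without any other single fetus. The median log2 fold change was -0.46, with 41 genes below and 17 above zero. Without overlap between the groups were 10 of the 58, against 14.7% of all genes, and 5 of these were lower (Podxl, Mme, Wt1, Tcf21 and Cd2ap) and 5 higher (Htra1, Fyn, Pdpn, Inf2 and Zhx2) in the dysmorphic kidneys. By role, 1 of 16 foot process genes and 1 of 11 surface and secreted proteins were called. None of 8 transcription factors (median -1.45), 15 slit diaphragm genes (median -0.42) or 8 basement membrane genes (median -0.38) was called by edgeR. At an unadjusted p under 0.05 there were 25 of the 58 genes, against 20.3% of all genes. Other podocyte transcripts of the list were low in the dysmorphic libraries and in control fetus 3. Ddn (dendrin) was at 2.55, 1.36 and 0 CPM in the controls and at most 0.155 CPM in the dysmorphic kidneys. R3hdml, a secreted protein gene, was at 3.44, 1.28 and 0.018 CPM against at most 0.099 CPM. Col4a3, a collagen chain of the mature glomerular basement membrane, was at 27.7, 9.99 and 2.95 CPM against 1.13 to 6.33 CPM (log2 fold change -2.34, edgeR adjusted p = 0.14). In each of them control fetus 1 was highest and control fetus 3 lowest of the controls, as for Nphs1. Htra1, a secreted serine protease (log2 fold change 2.13, edgeR adjusted p = 0.0619), and Pdpn, podoplanin (0.87, adjusted p = 0.0516), had higher estimates and missed the threshold.

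In adult kidney the podocyte genes of the non-transformed tissue of fusion mice were close to those of Sglt2-Cre controls. Nphs1 was at 19.5, 36.3 and 27.7 CPM in the control kidneys and 25.2, 19.1, 27.3 and 18.9 CPM in non-transformed kidney of fusion mice 1, 3, 4 and 5. The ranges of every one of the 8 genes overlapped, against 11.2% of all genes whose groups did not overlap. edgeR called 0 of 8 genes, where 0.00952% of 21019 genes were called (2 genes). At an unadjusted p under 0.05 there were 0 of 8, against 11.7% of all genes, and DESeq2 called 0 of 8, against 2.43% of 23906 genes. Estimates ran from -0.37 for Wt1 (SE 0.187, edgeR adjusted p = 0.478) to 0.01 for Podxl and Synpo. Those of Podxl and Synpo changed sign with no filter or in a fit of all adult groups together. The spread between mice was larger for Mme, at 802, 643 and 767 CPM in controls and 400, 946, 948 and 495 CPM in non-transformed kidney. Of the wider list 0 of 58 were called by edgeR and 0 by DESeq2, with 5 at an unadjusted p under 0.05, against 11.7% of all genes.

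**Figure D3:**
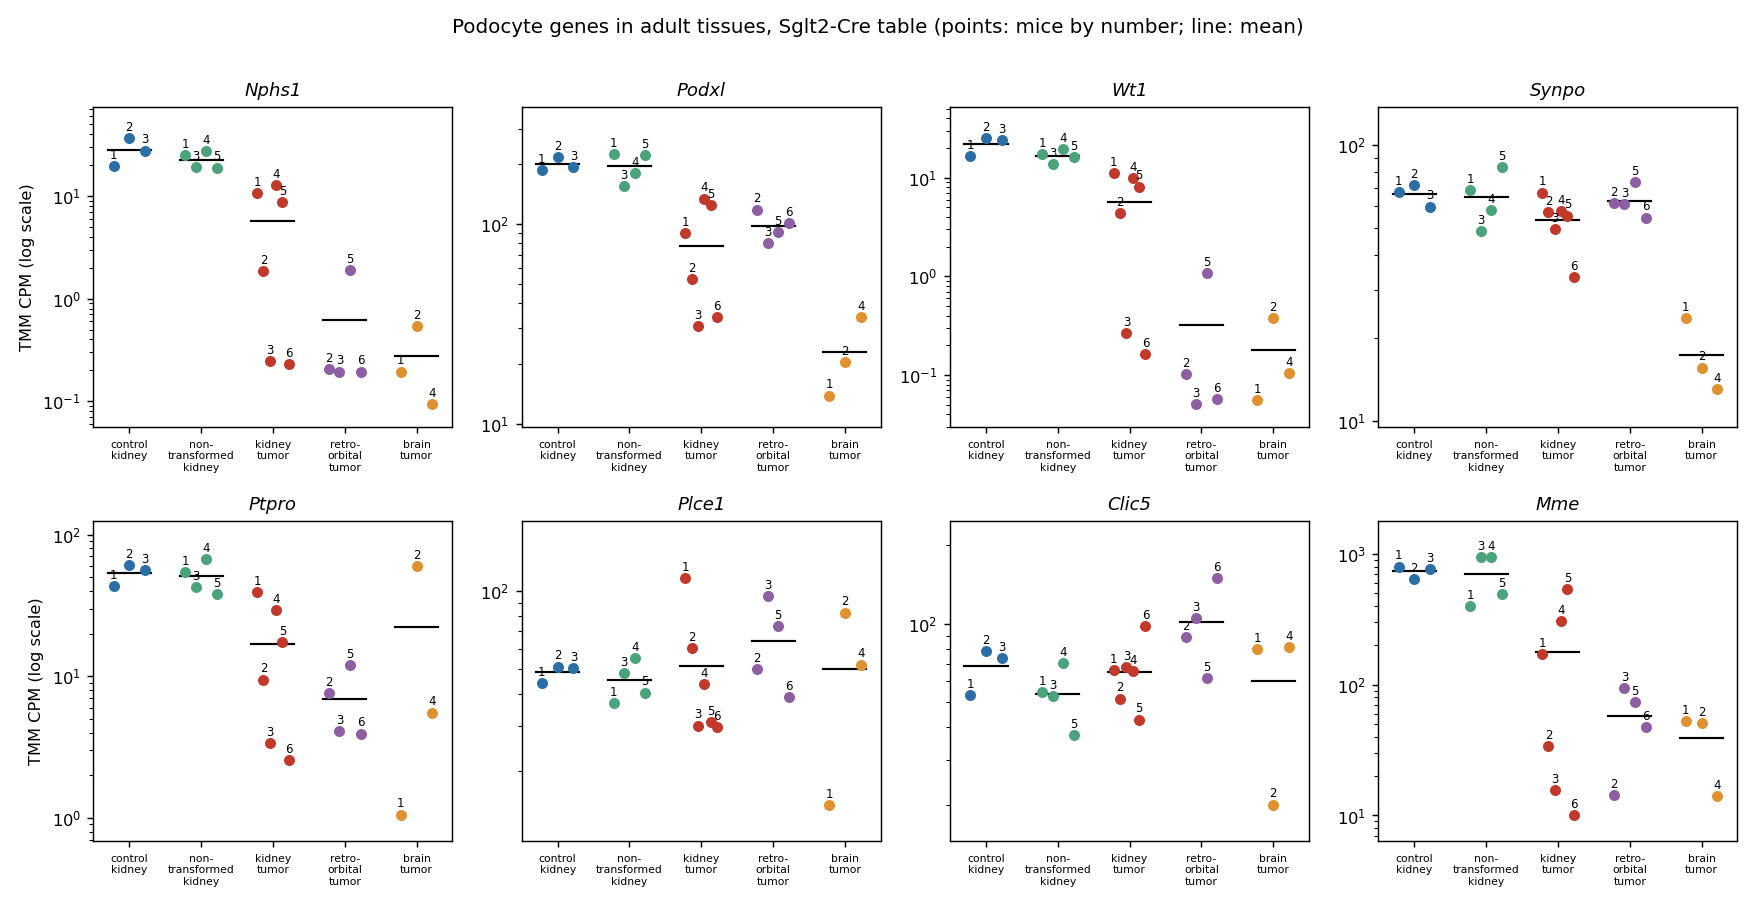
Level of each podocyte gene in CPM (log scale, vertical) in 3 control kidneys, 4 non-transformed kidneys, 6 kidney tumors, 4 retro-orbital tumors and 3 brain tumors, with mice numbered and group means as lines. Nphs1, Wt1, Ptpro and Mme spread over more than 10-fold among the kidney tumors, whereas Synpo and Clic5 stay within 3-fold.

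In kidney tumors the genes split into those that ran below normal kidney and those near it. Nphs1 ranged from 0.232 to 12.7 CPM (median 5.27, n = 6 mice), below the 19.5 to 36.3 CPM of control kidneys. Wt1 ranged from 0.164 to 11.0 CPM (median 6.24) against 16.5 to 25.4 CPM. Podxl ranged from 30.8 to 134 CPM (median 71.6) against 186 to 217 CPM. The other genes lower in every tumor than in every control were Ptpro, at 2.57 to 39.5 CPM (median 13.4) against 43.1 to 60.7 CPM, and Mme, at 9.998 to 535 CPM (median 103) against 643 to 802 CPM. These were 5 of 8 genes without overlap, against 29.8% of all genes. Synpo (33.3 to 67.3 CPM, median 56.4, against 59.8 to 71.7 CPM), Plce1 (29.8 to 113, median 37.3, against 44.0 to 51.0 CPM) and Clic5 (42.7 to 97.6, median 66.1, against 53.2 to 78.5 CPM) overlapped.

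The test called none of these differences. edgeR called 0 of 8 genes against a background of 19% of 23578 genes. At an unadjusted p under 0.05 there was 1 of 8 (Podxl), against 36.2% of all genes. DESeq2 called 1 of 8 (Podxl, adjusted p = 0.0328), against 26.2% of 27393 genes. With every library as its own sample, edgeR called 4 of 8, and 9405 of all genes. Log2 fold changes were -2.26 for Nphs1 (SE 1.08, edgeR adjusted p = 0.163), -2.04 for Mme (SE 1.05, adjusted p = 0.188), -1.95 for Wt1 (SE 1.04, adjusted p = 0.204), -1.64 for Ptpro (SE 0.750, adjusted p = 0.148) and -1.34 for Podxl (SE 0.451, adjusted p = 0.0652). For the first 4 the SE was 0.750 to 1.08 log2 units, and their tumor levels spread over more than 10-fold between mice. Podxl was called without fusion mouse 4 (-1.57, edgeR adjusted p = 0.0367) or without fusion mouse 5 (-1.48, adjusted p = 0.048). Estimates for Synpo (-0.29), Plce1 (0.11) and Clic5 (-0.04) were small beside these, with adjusted p of 0.311, 0.881 and 0.917, and those of Plce1 and Clic5 changed sign when single mice were left out.

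Kidney tumors against non-transformed kidney use the same tumors, and 4 of the 6 mice gave both tissues. Podxl fell, with a log2 fold change of -1.36 (SE 0.416) and an adjusted p of 0.0486 by edgeR, the only call among 8 genes, where 17.1% of 21930 genes were called. DESeq2 called 1 of 8, against 23.9% of 24788 genes, and 2 of 8 had an unadjusted p under 0.05 by edgeR, against 34.1% of all genes. With the mouse as a block the change of Podxl was -1.26 (SE 0.322, adjusted p = 0.102) and 0 of 8 genes were called by edgeR, with 847 of all genes called. Leaving out any 1 of fusion mice 1 to 6 also removed the call (adjusted p = 0.147, 0.0878, 0.113, 0.0522, 0.0664 and 0.0691 in that order). Nphs1 (-2.0), Wt1 (-1.59) and Podxl were lower in every tumor than in every non-transformed kidney, 3 of 8 genes against 17.9% of all genes, and the edgeR adjusted p was 0.174 for Nphs1 and 0.252 for Wt1.

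**Figure D4:**
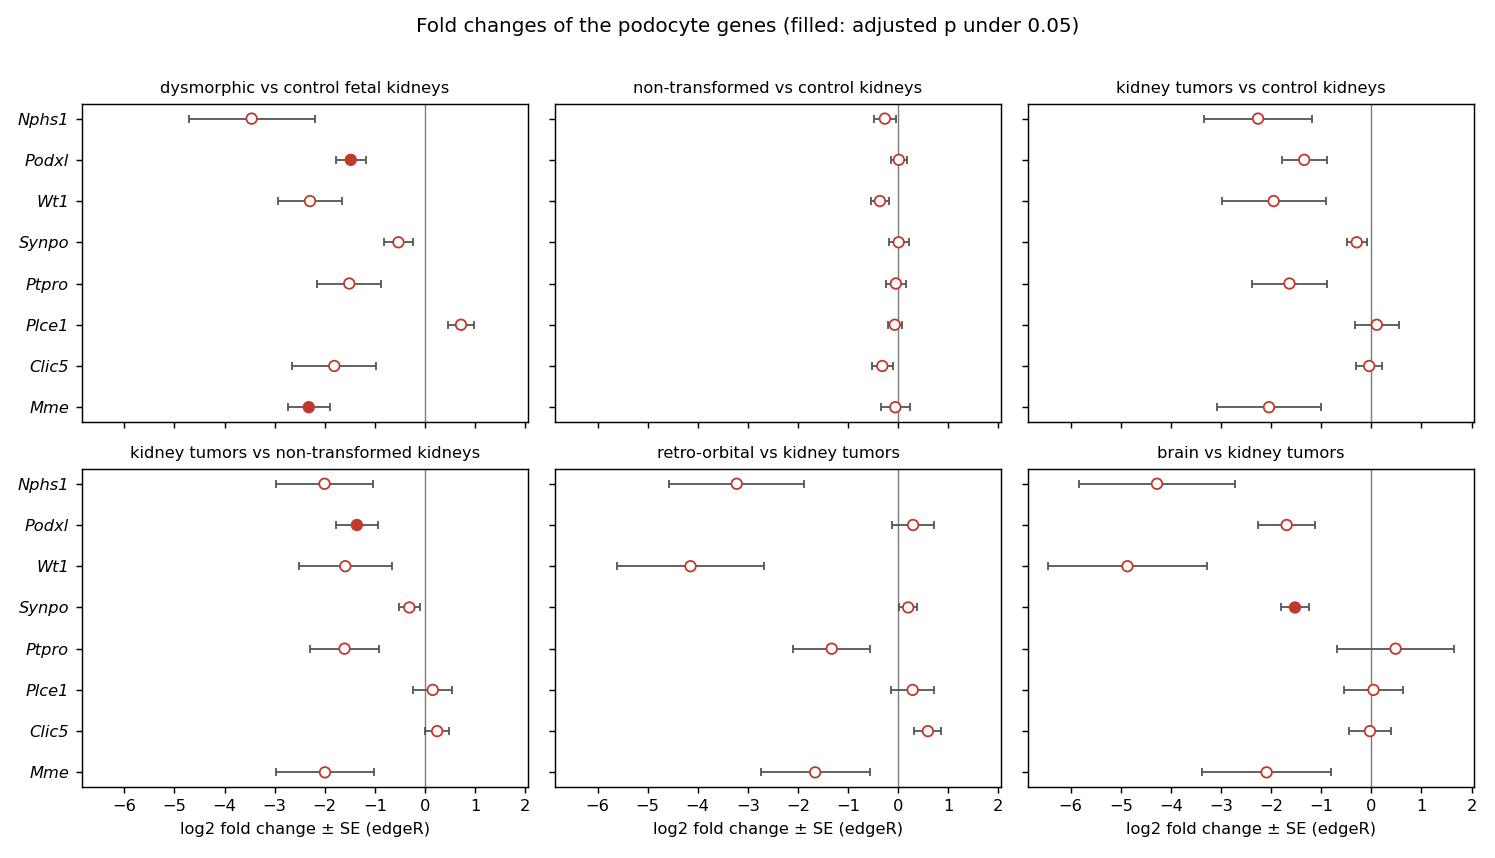
Log2 fold change (horizontal, bars are SE) of the 8 podocyte genes in 6 edgeR comparisons, filled where the adjusted p was under 0.05. Filled points are Podxl and Mme in dysmorphic fetal kidneys, Podxl in kidney tumors against non-transformed kidney, and Synpo in brain against kidney tumors.

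The kidney tumors differed by mouse. As a percent of the control kidney mean, Nphs1 was at 38.6%, 45.7% and 31.3% in the tumors of fusion mice 1, 4 and 5, at 6.62% in mouse 2, and at 0.883% and 0.834% in mice 3 and 6. The markers of tubule ran low in the tumors of mice 2, 3 and 6 as well. The proximal tubule sum was 4.90%, 5.00% and 4.94% of the control mean there, against 64.1% and 60.8% in mice 4 and 5 and 20.1% in mouse 1. The distal nephron sum was at 4.96%, 4.81% and 2.17% in mice 2, 3 and 6 and at 16.4%, 62.5% and 89.4% in mice 1, 4 and 5. Endothelial markers summed to 76.4% to 124% in all 6, and the part of adjoining kidney in the tumor blocks was not tested.

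Podxl did not go as low as Nphs1 in the tumors that nearly lacked nephrin transcripts. In mice 3 and 6 Podxl was at 15.5% and 17.2% of the control mean and Ptpro at 6.33% and 4.81%. Wt1 was at 1.21% and 0.746% there, close to Nphs1. Mme was at 2.11% and 1.36%, below the proximal tubule sum. Synpo stayed at 50.2% to 101% over the 6 mice and Clic5 at 62.4% to 143%, with its highest level in mouse 6, the mouse with the lowest Nphs1. Plce1 was at 233% in mouse 1 and 61.4% to 124% in the others.

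**Figure D5:**
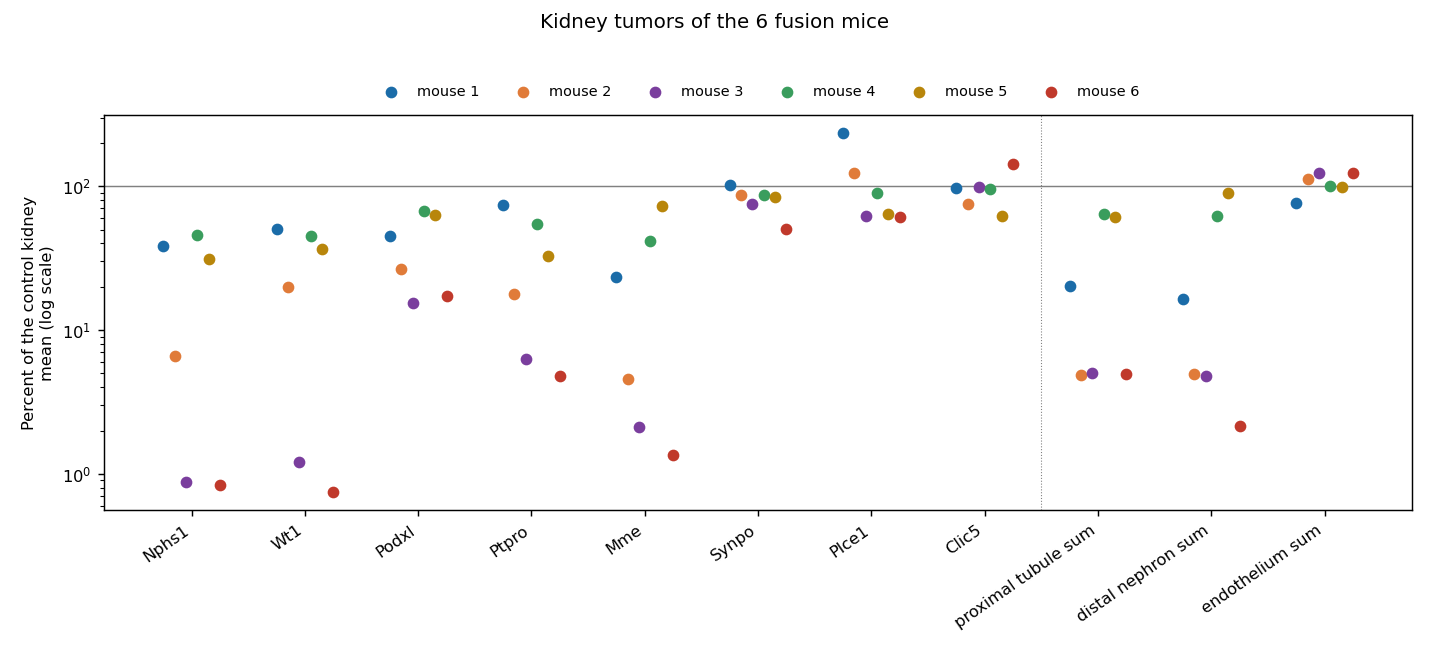
Level in the kidney tumor of each of the 6 fusion mice as a percent of the control kidney mean (log scale, vertical) for the 8 podocyte genes and 3 marker sums. Mice 3 and 6 are near 1% for Nphs1 and Wt1 and near 5% for the proximal tubule sum, whereas Synpo, Clic5 and the endothelium sum stay between 50.2% and 143% in all mice.

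Libraries from the same mouse also differed. The 2 kidney tumor libraries of mouse 4 had Nphs1 at 18.6 and 6.87 CPM, Podxl at 172 and 97.8 CPM and Wt1 at 14.1 and 5.67 CPM. Those of mouse 1 had Nphs1 at 8.01 and 13.3 CPM and Plce1 at 76.2 and 147 CPM. In control mouse 1, which has no tumor, the 2 kidney libraries had Nphs1 at 25.5 and 12.7 CPM, while Wt1 was at 19.1 and 13.3 CPM, Podxl at 215 and 152 CPM and Plce1 at 43.6 and 43.2 CPM. Pieces of normal kidney from 1 mouse thus differed as well, by a larger ratio for Nphs1 than the tumor pair of mouse 1 and a smaller one than that of mouse 4. The tumor libraries of mice 3 and 6 were low for Nphs1 in both pieces, at 0.326 and 0.160 CPM and at 0.356 and 0.110 CPM.

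Tumors outside the kidney were compared with the kidney tumors. Retro-orbital tumors of fusion mice 2, 3, 5 and 6 had Nphs1 at 0.205, 0.194, 1.89 and 0.195 CPM and Wt1 at 0.103, 0.0507, 1.07 and 0.0568 CPM. Mouse 5 stood apart for both genes, and its proximal tubule and distal nephron sums were 8.45% and 8.52% of the control kidney mean, against at most 1.67% for the proximal sum of the other 3 tumors. Podxl was at 118, 80.04, 91.2 and 101 CPM, higher in mice 2, 3 and 6 than in the kidney tumors of the same mice (53.0, 30.8 and 34.3 CPM) and lower in mouse 5 (125 CPM in its kidney tumor). Endothelial markers summed to 1161 to 1653 CPM in retro-orbital and 742 to 1206 CPM in kidney tumors, and the part of endothelium in the Podxl level was not tested. Clic5 was at 88.5, 105, 61.8 and 150 CPM, and in each of the 4 mice this was above the kidney tumor (51.5, 68.0, 42.7 and 97.6 CPM). Endothelium sums in these mice were also higher in the retro-orbital tumor. They were 1653, 1584, 1161 and 1648 CPM against 1087, 1205, 960 and 1206 CPM. The part of endothelium in the Clic5 level was not tested.

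edgeR called 0 of 8 genes between retro-orbital and kidney tumors, where 17.7% of 22136 genes were called. At an unadjusted p under 0.05 there were 2 of 8, against 33.2% of all genes. DESeq2 called 2 of 8 (Nphs1 and Wt1), against 23.3% of 26075 genes. The log2 fold changes were -4.14 for Wt1 (SE 1.47, edgeR adjusted p = 0.0772), -3.22 for Nphs1 (SE 1.34, adjusted p = 0.124) and 0.59 for Clic5 (SE 0.269, adjusted p = 0.153). No gene of the 8 separated the groups, against 16.3% of all genes. With the mouse as a block, in the 4 mice that gave both tumors, Clic5 rose by 0.66 (SE 0.102, edgeR adjusted p = 0.0244), the only call among 8 genes, with 2677 of all genes called. In that fit Nphs1 was at -1.48 (SE 0.632, adjusted p = 0.17), Wt1 at -3.03 (SE 0.725, adjusted p = 0.053) and Podxl at 0.96 (adjusted p = 0.145), against 0.30 without the block, and Ptpro and Mme changed sign, from -1.33 and -1.66 to 0.03 and 0.27. Wt1 was called without mouse 5 (-6.18, edgeR adjusted p = 0.0389).

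Brain tumors of fusion mice 1, 2 and 4 had Nphs1 at 0.194, 0.539 and 0.0945 CPM and Wt1 at 0.0555, 0.381 and 0.104 CPM. Synpo was at 23.6, 15.6 and 13.1 CPM, below the 33.3 CPM of the lowest kidney tumor. Against kidney tumors Synpo fell, with a log2 fold change of -1.52 (SE 0.286) and an adjusted p of 0.0197 by edgeR, the only call among 8 genes and the only one without overlap, where 8.74% of 23391 genes were called and 15.3% did not overlap. DESeq2 called 4 of 8, against 20% of 25531 genes, and 4 of 8 had an unadjusted p under 0.05 by edgeR, against 28.5% of all genes. With the mouse as a block the change of Synpo was -1.79 (adjusted p = 0.267), edgeR called 0 of 8 and 0 of all genes in that fit (2870 of all genes at an unadjusted p under 0.05), and the call was also lost without mouse 2 (adjusted p = 0.0955) or mouse 4 (0.0642). Ptpro was at 1.05, 59.9 and 5.54 CPM, and the high value in mouse 2 came with the neuronal gene Snap25 at 279 CPM, against 2.20 and 14.5 CPM in mice 1 and 4. Its log2 fold change of 0.48 became -2.44 without mouse 2, and the part of brain tissue in it was not tested. The other estimates were -4.87 for Wt1 (edgeR adjusted p = 0.0829), -4.28 for Nphs1 (0.11), -2.09 for Mme (0.324) and -1.69 for Podxl (0.0928). With the block, in the 3 mice that gave both tumors, Wt1 was at -5.90 and Nphs1 at -5.02, and Ptpro and Plce1 changed sign, to -2.02 and -0.59.

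Of the wider podocyte list, 57 or 58 genes were tested in each adult comparison. The list holds the 8 genes and, like them, is not limited to genes transcribed only in podocytes. In kidney tumors against control kidney 4 of 57 were called higher and 3 lower, where 19% of all genes were called. Kirrel3, a nephrin-related adhesion protein, rose, with a log2 fold change of 5.77 (SE 0.923) and an adjusted p of 0.00436 by edgeR, from 0.378 to 0.446 CPM in controls to 3.37 to 42.8 CPM in tumors. Its highest tumor levels were in mice 3 and 6 (39.1 and 42.8 CPM), the tumors with the least Nphs1, although mouse 4, with the most Nphs1, was at 24.6 CPM. Fat1 (1.21), Trpc6, a calcium channel of the slit diaphragm (0.75), and Itgb1 (0.63) were the others called higher. Thsd7a (-0.72), the integrin ligand gene Npnt (-1.81) and Arhgap24 (-1.80) were called lower. The count of 7 became 2, 1 and 1 without control mouse 1, 2 or 3, 4 without fusion mouse 2 and 2 without fusion mouse 3, while the 4474 of all genes became 2084, 1163, 1207, 3355 and 3104 in that order. Against non-transformed kidney, which was tested with the same tumors, 4 of 58 were higher and 7 lower, where 17.1% of all genes were called, and with the mouse as a block edgeR called 1. The count of 11 became 1, 6, 1, 6, 6 and 6 without fusion mice 1 to 6 in that order, with 1423, 2661, 1252, 2785, 3873 and 2702 of all genes called. Between retro-orbital and kidney tumors 8 of 57 were higher, among them Trpc6 (1.87) and Pdpn (1.54), and 9 lower, among them Tcf21 (-4.65) and Cd2ap, a slit diaphragm adaptor (-0.91), where 17.7% of all genes were called. With the block 11 were called, with 2677 of all genes, and without mouse 2, 3 or 6 the count of 17 became 7, 9 and 8, with 1805, 1635 and 1775 of all genes called. Between brain and kidney tumors 1 of 57 was higher (Nebl, 2.27) and 7 lower, among them Col4a3 (-5.37) and Tcf21 (-5.12), where 8.74% of all genes were called. With the block edgeR called 0, with 2870 of all genes at an unadjusted p under 0.05. The count of 8 became 2, 1 and 4 without mouse 1, 2 or 4, with 553, 300 and 1528 of all genes called.

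The fetal difference, dysmorphic against control kidneys, was then set against the adult difference, kidney tumors against control kidneys, with an interaction test. It compares a whole malformed organ with tumors, and the part of that in the values was not tested. edgeR called 0 of 8 podocyte genes, where 8.94% of 24444 genes were called, and 0 of 8 had an unadjusted p under 0.05, against 24.8% of all genes. DESeq2 was not run for it. The fetal minus the adult log2 fold change was -1.81 for Clic5 (SE 0.921, adjusted p = 0.238), and -2.91 without dysmorphic fetus 5 (adjusted p = 0.00804). It was -1.19 for Nphs1 (SE 1.78, adjusted p = 0.732) and between -0.35 and 0.58 for the other 6 genes. In the wider list 3 of 58 genes differed between the models by the edgeR test, Kirrel3 (-5.03, adjusted p = 0.0103), Fat1 (-1.45, adjusted p = 0.0252) and Trpc6 (-1.32, adjusted p = 0.0292).

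Levels can be compared between the genes only per kilobase of exon. On that scale Mme (63.9 CPM per kb) and Podxl (36.2) led in control kidney, followed by Ptpro (7.95), Clic5 (7.80), Synpo (6.96), Nphs1 (4.20), Wt1 (3.56) and Plce1 (3.03). In control fetal kidney the order was Podxl (26.4), Mme (25.7), Wt1 (12.2), Synpo (6.08), Ptpro (5.40), Clic5 (4.86), Plce1 (4.82) and Nphs1 (1.27). Wt1 had rank 3 there and rank 7 in adult kidney. In dysmorphic kidneys Plce1 (7.91) stood behind only Podxl (9.44), and Nphs1 (0.115) was last. The tables were scaled separately, so these orders hold within each table.

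Likeness to Nphs1 was measured as Pearson r on the log2 CPM scale across the 28 samples among 14595 genes, a description over samples that share tables and animals. The 10 most like it included Cldn16 (r = 0.958), Rhcg (0.954), Tmem213 (0.951), Defb1 (0.949), Trpv5 (0.946), Kl (0.945), Atp6v1g3 (0.944) and Myo3b (0.938), several of which are known from the distal tubule and collecting duct. Of the other podocyte genes, Mme had r = 0.879, Ptpro 0.814, Podxl 0.727, Wt1 0.682, Synpo 0.453, Clic5 0.040 and Plce1 -0.166. Over the 8 fetal kidneys alone Mme had r = 0.761, Wt1 0.704, Ptpro 0.701, Podxl 0.441, Clic5 -0.090, Synpo -0.296 and Plce1 -0.720. Defb1 (0.984), Gm13092 (0.982), Jmy (0.979), Gm43672 (0.978), Ctrl (0.965), Slc7a12 (0.962), Ift74 (0.959), Mipol1 (0.949), Kcnj1 (0.947) and Cep290 (0.945) were highest there.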

How the data were processed

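Total RNA from fixed, paraffin-embedded mouse tissue was sequenced from stranded libraries in which ribosomal RNA had been kept. The authors deposited raw counts per gene, not normalized, in a fetal table of 8 and an adult table of 28 libraries. The submitters' processing notes list STAR 2.5.2a, Bowtie2, FastQC, MultiQC and GRCm38 (mm10), while the counter, annotation and strand setting are not given in the sources used here. Of 53379 gene IDs, 53274 matched GENCODE M21 without the version. Between 79.04% and 84.33% of counts from 1 to 20 were even in each library, so independent fragments may number fewer than the counts, and halved counts were tried as an alternative.

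Counts were summed per animal and group, since the 8 pairs of libraries from the same animal differed beyond sampling noise (chi-square per degree of freedom 49.38 to 560.9). Only the groups compared entered a fit, made with edgeR 4.0.16 under R 4.3.3 (TMM, filterByExpr, quasi-likelihood F-test, no covariate), with Benjamini-Hochberg adjustment over all genes tested. An SE was obtained from the log2 fold change and its F statistic (fold change over root F). DESeq2 1.42.0, other scalings, no filter, covariates, a joint fit, single libraries and leaving out each animal were alternatives, and fits with intestinal or muscle markers or without 3 fetuses were added after seeing the data. The scripts were tested on simulated data. Kidney, retro-orbital and brain tumors and non-transformed kidney shared mice, which pairs them by design. Deviations from the group means correlated between tissues of a mouse at 0.007 to 0.184 where kidney tumors were set against non-transformed kidney, 0.085 to 0.297 for retro-orbital and kidney tumors and -0.158 to 0.142 for brain and kidney tumors, and blocked values stand beside the results they change. By Y-linked transcripts 3 of 5 dysmorphic and 1 of 3 control fetuses were male, as were 2 of 6 mice with kidney tumors and 0 of 3 control mice.

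The genes named are the 8 members, genes of the podocyte and marker lists, and the 10 genes with the highest Pearson r to Nphs1 (log2 CPM, prior count 2, mean log2 CPM of at least 0). Some genes that this rule names are not reported here. The members and lists were chosen with earlier results of these data known. The deposited tables hold no other per-sample columns. Where separate litters or cultures are not named, p-values measure the spread between these animals. The paper given with the series describes mice with other TFE3 fusions and was not used for the design.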

Additional observations from a re-analysis of the deposited data

Results flagged for a closer look

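In 32 groups of 4 to 6 samples (8 genes in 4 groups), 6 held a sample set apart by Dixon's criterion, which flags about 1 group in 20 by chance. Wt1 was at 41.0 CPM in dysmorphic fetus 2, with 11.6 CPM as the next highest dysmorphic value. Ptpro was at 22.7 CPM in dysmorphic fetus 5 (next 11.3 CPM) and Clic5 at 38.2 CPM in the same fetus (next 7.05 CPM), the dysmorphic library with intestinal transcripts and the highest sums of neuron markers (259.8 CPM) and of cartilage and adrenal markers (2111 CPM, against 847 and 302 CPM in dysmorphic fetuses 3 and 4 and at most 72.8 CPM in the other 5 libraries). Nphs1 was at 1.89 CPM (next 0.205 CPM) and Wt1 at 1.07 CPM (next 0.103 CPM) in the retro-orbital tumor of fusion mouse 5, the retro-orbital tumor with the highest proximal tubule sum, 1114 CPM. Plce1 was at 113 CPM in the kidney tumor of fusion mouse 1 (next 60.1 CPM), in which the 2 libraries differed (76.2 and 147 CPM). The part of other tissue in these values was not tested.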

How the results depend on the processing

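Of the estimates for the 8 genes under other settings, 344 kept sign and side of the threshold, 19 passed it newly, 13 lost it and 16 changed sign. Of those made leaving out an animal, 405 kept both, 6 passed newly, 20 lost the call and 41 changed sign. In the fetal comparison edgeR called 0 members, and 0 of all genes (3209 to 4615 at an unadjusted p under 0.05), without any 1 of 6 of the 8 fetuses, and between kidney tumors and non-transformed kidneys 0 without any 1 of the 6 mice. The cause was not tested.

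In the fetal comparison DESeq2 called 2608 genes, 4 members and 13 of the wider list. The title prefix as a covariate left 409 genes, 0 members and 0 of the wider list called (adjusted p = 0.0607 for Podxl and 0.0513 for Mme), sex left 5 genes, 0 and 0 (0.0702 and 0.0613), and leaving out the 3 fetuses with intestinal transcripts, the intestinal covariate and the muscle covariate each left 0 genes, 0 and 0 called by edgeR, with 3209, 4159 and 958 genes at an unadjusted p under 0.05. Under the muscle covariate Wt1 (0.77), Plce1 (-0.48) and Clic5 (1.9985) changed sign. In kidney tumors against control kidneys DESeq2 called 7176 genes, 1 member and 12 of the wider list. The joint fit called 1 member, with 8297 of all genes at an unadjusted p under 0.05. Every library as its own sample gave 9405, 4 and 21, with Clic5 at 0.024. Over the settings that kept all animals, 3668 to 9405 genes were called in this comparison. Between non-transformed and control kidneys the genes called were 6 with no filter, 580 by DESeq2, 5 in the joint fit and 227 by library, Podxl was at -0.000708 with no filter and -0.0067 in the joint fit, and Synpo at -0.0050 and -0.012. Between kidney tumors and non-transformed kidneys no filter gave 0 members and 7 of the wider list, with 8369 of all genes at an unadjusted p under 0.05. DESeq2 called 5916 genes, and the replicate block by mouse 847 genes, 0 and 1, with Plce1 at -0.019. Between retro-orbital and kidney tumors DESeq2 called 6088 genes and 2 members. The joint fit called 2 members, with 7619 of all genes at an unadjusted p under 0.05. The block called 2677 genes, 1 member and 11 of the wider list, with Ptpro at 0.032 and Mme at 0.27. Over the settings that kept all animals, 2677 to 6088 genes were called there. Between brain and kidney tumors DESeq2 called 5097 genes, 4 members and 22 of the wider list, the joint fit 5933, 4 and 28 (Plce1 -0.0079), single libraries 4052 genes and 16 of the wider list (Plce1 -0.0035), and the block 0, 0 and 0 by edgeR with 2870 genes at an unadjusted p under 0.05 (Ptpro -2.02, Plce1 -0.59). Clic5 was at 0.035 there under upper quartile factors. The block changed no other member call.

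Leaving out an animal gave 0 to 1247 genes, 0 to 3 members and 0 to 9 of the wider list in the fetal comparison, 1163 to 5856, 0 to 1 and 1 to 8 for kidney tumors against control, 0 to 10 genes for non-transformed against control, 1252 to 3873, 0 to 0 and 1 to 6 for kidney tumors against non-transformed, 1635 to 4089, 0 to 1 and 7 to 16 for retro-orbital, 300 to 1528, 0 to 1 and 1 to 7 for brain, and 956 to 2954 genes and 0 to 1 members for the difference between models. Signs changed within these ranges of log2 fold change: Clic5 -0.33 to 0.32 (brain) and -0.20 to 0.091 (tumors against control), Plce1 -0.51 to 0.86 (brain), -0.28 to 0.24 (tumors against control), -0.33 to 0.31 (tumors against non-transformed), -0.17 to 0.018 (non-transformed) and -0.072 to 0.75 (retro-orbital), and Ptpro -2.44 to 1.49 (brain). In non-transformed against control kidneys Mme ran from -0.23 to 0.14, Podxl from -0.071 to 0.12, Ptpro from -0.20 to 0.058 and Synpo from -0.16 to 0.13. In the difference between models Mme ran from -0.63 to 0.43, Podxl from -0.40 to 0.069, Ptpro from -0.31 to 1.07, Synpo from -0.48 to 0.071 and Wt1 from -1.12 to 0.15.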
